A study of Mus musculus with 6 samples.

Results

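ETS family transcription factors share a DNA-binding domain that reads a GGAA core, and several of them set blood cell fate. Spi1 (PU.1) and Spib drive myeloid and B lymphoid genes, Ets1 and Ets2 are the founding members, Fli1 and Erg act in stem cells and megakaryocytes, Elf1 is broadly expressed in lymphoid cells, Etv6 is a repressor that is often rearranged in leukemia, and Elk1 and Elk4 are partners of serum response factor. CDK6 has no DNA-binding domain of its own and reaches chromatin through other proteins, so a peak marks a place where CDK6 was crosslinked, whatever brought it there. The 10 genes named here, of 22028 protein-coding genes in the annotation, form a list of family members, chosen with earlier results of these data known and by no threshold on a measured value. Their own loci were examined for CDK6 occupancy. A locus was the gene with its promoters and 20000 bp to each side. A promoter was a window around any annotated transcript start, reaching 2000 bp against and 200 bp along the direction of transcription.

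Occupancy was measured by ChIP-seq with an antibody against the HA tag in mouse BCR::ABL1+ cell lines, labelled as Pre/Pro-B-cells. All cells lacked endogenous CDK6 (Cdk6-/-) and overexpressed an HA-tagged protein, either wildtype CDK6 (CDK6-WT) or the kinase inactive CDK6-K43M, so no sample carried CDK6 at its native level. Peak lists of 2 libraries per variant were analysed, and the comparison asks if occupancy of these genes depends on the kinase function of CDK6. The labels do not say whether replicates were separate cell lines, so the spread between them may be technical. The lists held 34729 to 39797 peaks. A percentile gives the rank of a peak by its -log10 q-value within the list of its own library, and 100 is the strongest. Promoters of precursor B cell genes were occupied by both variants in 7 of 8 cases, and Rag1 had peaks in the replicate 2 lists alone. None of 4 T cell promoters and none of 4 erythroid and megakaryocytic promoters was bound by both. Of 5 myeloid promoters, only that of Lyz2 was, with percentiles of 36.3, 12.5 and 16.2 and no peak in CDK6-WT replicate 1. Among protein-coding genes outside the list of ETS members, 41.3% had a promoter bound by both. The marker counts were not tested against this share, and each marker list holds few genes.

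CDK6 occupied the promoters of 9 of the 10 ETS genes with either variant. A region, made by merging overlapping peaks of the 4 lists, was called bound by both variants when at least 3 of the lists held it. Of the other 22018 protein-coding genes, 41.3% had such a promoter. The number of transcript starts and promoter windows per gene was not adjusted for. At Spi1 and Erg only internal starts had such a region. Peaks lay in the promoter windows in all 4 lists for 8 members, against 33.2% of the other genes. No member had a promoter region unique to CDK6-WT or to CDK6-K43M, and only 0.936% of the other genes did. The exception was Elk1, whose single promoter peak stood in CDK6-K43M replicate 1 at the 10.1 percentile.

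Except in CDK6-K43M replicate 2, the strongest promoter peaks of the ETS genes ranked close to those of other occupied promoters. Over the 8 members with promoter peaks in every list, the median percentile of the strongest one was 83.5 in CDK6-WT replicate 1, 63.4 in CDK6-WT replicate 2, 83.5 in CDK6-K43M replicate 1 and 75.8 in CDK6-K43M replicate 2. The corresponding medians of 7304 other genes were 84.3, 63.4, 86.1 and 62.8. In CDK6-K43M replicate 2 the median of the members was higher, but below the upper quartile of the other genes, 78.9. The mean was 73.4 ± 14.2 (SD, n = 2) with CDK6-WT and 79.6 ± 5.44 (SD, n = 2) with CDK6-K43M. Their difference of 6.20 was smaller than the spread between the CDK6-WT replicates (exact permutation test, two-sided, p = 0.667). It was 0.0209 within replicate 1 and 12.4 within replicate 2. With 2 libraries against 2, the smallest p this test can give is 0.33.

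**Figure D1:**
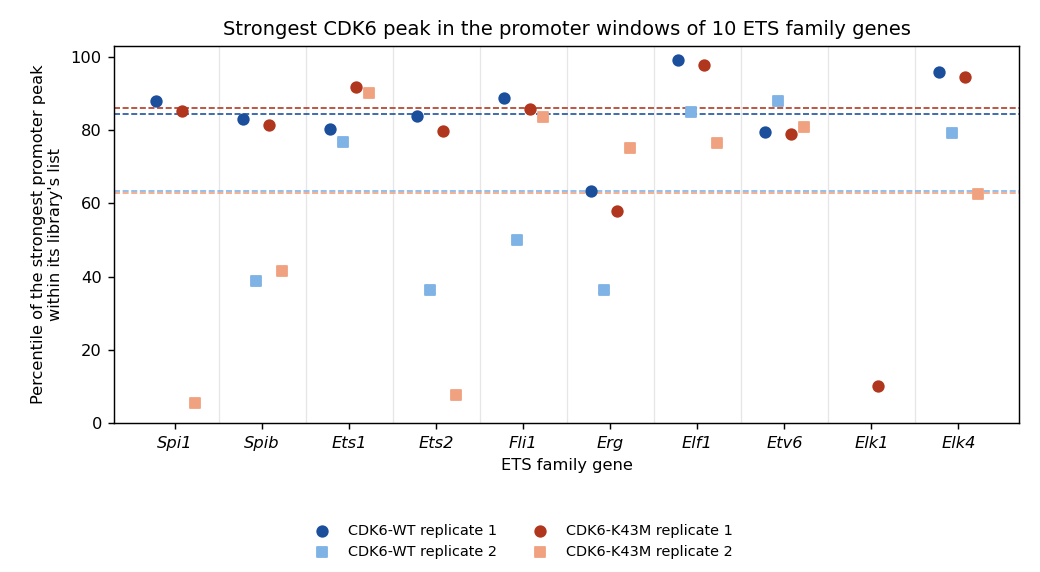
Percentile of the strongest promoter peak (y axis, within the list of the library) of each of the 10 ETS genes (x axis), with 1 point per library. A missing point means no promoter peak, and the dashed lines give the median of 7304 other genes in the library of the same colour. Elf1 and Elk4 reached 99.2 and 95.8 in CDK6-WT replicate 1, the replicate 2 points of Spib and Ets2 lay between 7.80 and 41.5, and Elk1 had a single point at 10.1.

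Across the whole loci, which covered 1306 kb, the number of peaks did not separate the variants. CDK6-WT libraries had 87 and 91 peaks there, and CDK6-K43M libraries had 87 and 108. The highest count came from CDK6-K43M replicate 2, and the other 3 libraries were close together. The means were 89.0 ± 2.83 and 97.5 ± 14.8 (SD, n = 2 each), and the difference of 8.50 peaks gave p = 1.00 (exact permutation test, two-sided). Within replicate 1 the difference was 0 and within replicate 2 it was 17. As a share of each list, the ETS loci held 2.47 and 2.62 of every 1000 peaks with CDK6-WT and 2.19 and 2.90 with CDK6-K43M, a difference of -0.00571 per 1000 (p = 1.00, exact permutation test). The peak numbers of the 10 single loci were tested in the same way, with Benjamini-Hochberg adjustment over the 10 tests (exact permutation test, adjusted p = 1.00 for each). Since no raw p can fall below 0.33, no locus could pass, and these tests cannot decide whether the variants differ at a locus. The lowest raw value was 0.333 for Ets2, which had 5 and 4 peaks with CDK6-WT and 3 in each CDK6-K43M library. It was the only locus where the counts of the variants did not overlap.

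At the median, the ETS loci were denser in peaks than the loci of other genes. The median over members was 7.64, 6.38, 7.21 and 6.65 peaks per 100 kb in CDK6-WT replicates 1 and 2 and CDK6-K43M replicates 1 and 2, where the other protein-coding genes had medians of 2.14, 1.91, 2.40 and 1.95. The other genes include many without a peak, with a lower quartile of 0 in each library, and their upper quartiles were 6.07, 4.65, 6.65 and 4.82. Members ranged widely, from 0.729 per 100 kb at Etv6 in CDK6-WT replicate 1 to 21.7 at Spib in CDK6-K43M replicate 1. Etv6 in both replicate 1 libraries and Elk1 in CDK6-K43M replicate 2 lay below the medians of the other genes.

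Merging the lists gave 135 regions at the ETS loci. Of these, 64 (47.4%) were bound by both variants, against 40.5% of all 56748 regions in the genome. None was unique to CDK6-WT (0.359% of all regions). A single region was unique to CDK6-K43M, which is 0.741% of the regions at the loci against 1.26% of all regions. This region lay in an intron of Erg at 140 kb from the start, and its peaks had percentiles of 5.51 and 44.9 and 13 summit reads each. Distances are given from the first protein-coding transcript start in the direction of transcription, so that a minus sign means upstream. Lists that share a replicate number held more regions of their own than the lists of a variant did. Here 9 regions (6.67%) stood only in both replicate 1 lists, where the share among all regions was 13.0%, and 15 (11.1%) only in both replicate 2 lists, where it was 11.0%. The remaining 46 (34.1%) were found in a single list, as were 32.6% of all regions.

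**Figure D2:**
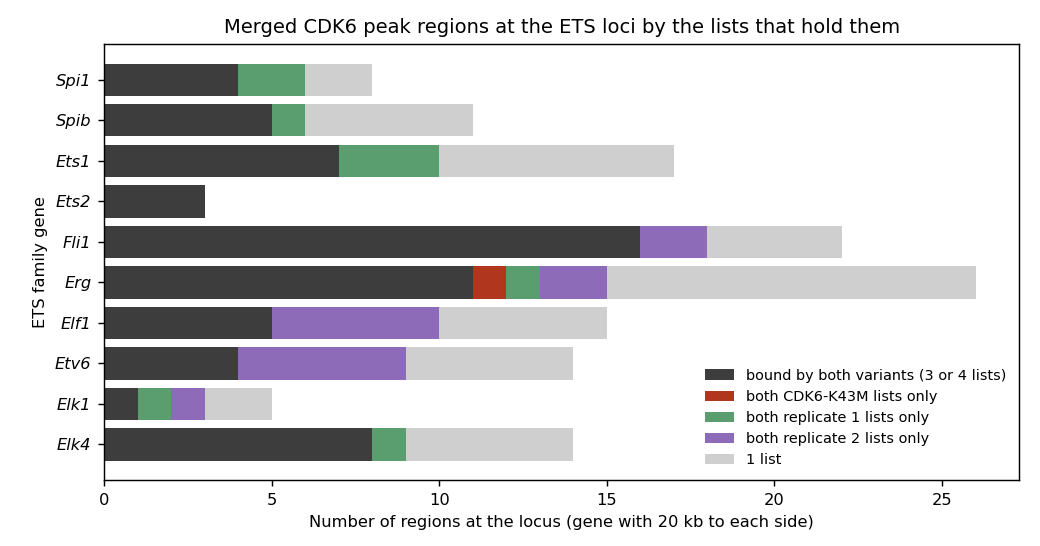
Number of merged regions (x axis) at each ETS locus (y axis), coloured by the lists that hold a peak there. Fli1 had the most regions bound by both variants (16 of 22), Elf1 and Etv6 had 5 regions each in the replicate 2 lists only, and the single variant-unique region was at Erg.

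Most regions shared by the variants lay inside the genes. Of the 64, 33 lay in the gene body outside promoters, 13 in promoters, 12 in the upstream flank and 6 in the downstream flank. By the position of the summit, 36 were intronic, 8 exonic and 20 outside the gene. These counts are not scaled by length and show no preference for gene bodies. Another protein-coding promoter was overlapped by 7 regions, 6 of them among the 18 in the flanks, and for these the peak cannot be assigned to the ETS gene. The pile-up at a summit, recovered from the deposited fold enrichment and p-value, ranged from 9 to 67 reads in these regions. Counting error alone is therefore wide for the weaker ones.

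Spi1 encodes PU.1, a pioneer factor whose level directs progenitors toward the myeloid or the B cell lineage. Its locus had 9 and 2 peaks with CDK6-WT and 6 and 4 with CDK6-K43M, fewer in each replicate 2 library. The first start on chromosome 2 carried a peak in CDK6-WT replicate 1 alone, at the 30.0 percentile. The promoter region bound by both lay instead at an internal start, at 14.3 kb, with percentiles of 87.9 and 85.1 in the replicate 1 libraries, 5.63 in CDK6-K43M replicate 2 and no peak in CDK6-WT replicate 2. An intronic region at 0.697 kb reached 88.2, 84.6, 90.6 and 10.2 in the order CDK6-WT replicates 1 and 2, CDK6-K43M replicates 1 and 2, which is the order used for every set of 4 values from here on. Only CDK6-K43M replicate 2 was low there.

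The strongest region of the Spi1 locus, at -12.0 kb, had percentiles of 96.3, 88.5, 94.5 and 85.8 and 60, 28, 67 and 23 summit reads. It also overlapped the promoter of Slc39a13, a zinc transporter gene, so it cannot be assigned to Spi1. The window at the summit of the intronic region is therefore given as the strongest site of Spi1 over no other promoter. Each sequence shown is a window of 101 bp that overlaps no annotated UTR, centred on the summit unless stated. It reads 5′ to 3′ on the strand of the ETS gene in mm10, and capitals mark the GGAA core on either strand (GGAA or TTCC).
Spi1 at 0.697 kb, chr2:91083037-91083137, plus strand: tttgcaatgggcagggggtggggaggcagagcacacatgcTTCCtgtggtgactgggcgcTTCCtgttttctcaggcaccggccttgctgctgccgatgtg
This window held 2 GGAA cores and 3 CpG dinucleotides.

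Spib, the close relative of Spi1 that acts mainly in B cells, had a compact locus with 8, 6, 10 and 6 peaks. Its promoter region at 0.698 kb in the first intron had percentiles of 83.1, 38.7, 81.3 and 41.5. All 5 of its regions present in every list ranked higher in both replicate 1 libraries than in both replicate 2 libraries, and the same held for the 2 such regions of Spi1. This order was common, in 41.1% of all regions present in every list and in 62.7% of those over a protein-coding promoter. The strongest Spib region, at -15.9 kb with 96.8, 74.2, 94.5 and 89.7, overlapped a promoter of Pold1, which encodes the catalytic subunit of DNA polymerase delta. Only in CDK6-K43M replicate 1 did the strongest peak itself overlap it. In the other libraries a weaker peak of the same region did. The regions at -2.36 and -4.35 kb also overlapped a promoter of Pold1.

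Ets1, an activator needed for normal B and T lymphocyte development, was occupied at its protein-coding start. The region at 0.0430 kb in exon sequence (chr9:32695805-32696394) had percentiles of 80.3 and 76.7 with CDK6-WT and 91.7 and 90.0 with CDK6-K43M. Both CDK6-K43M libraries ranked above both CDK6-WT libraries. The promoter window of an upstream start at -59801 bp, used by transcripts not annotated as protein-coding, held no peak in any list.
The sequence just upstream of the Ets1 start, centred 94 bp from the summit, is shown as the promoter at which the variants did not overlap. The window at 51.8 kb is shown because it was alone among the 64 shared regions in holding the full ETS consensus CCGGAAGT.
Ets1 at 0.0430 kb, chr9:32695921-32696021, plus strand: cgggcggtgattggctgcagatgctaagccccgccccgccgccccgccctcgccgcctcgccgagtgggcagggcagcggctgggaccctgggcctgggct
Ets1 at 51.8 kb, chr9:32747788-32747888, plus strand: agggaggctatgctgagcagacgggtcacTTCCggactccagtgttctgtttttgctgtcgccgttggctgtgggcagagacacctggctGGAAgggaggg
The promoter window held 11 CpG dinucleotides and no GGAA core. The consensus stands on the minus strand in the second window, an intronic site with percentiles of 36.8, 56.1, 68.5 and 64.0.

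Of the 7 Ets1 regions present in every list, 5 ranked higher in both CDK6-K43M libraries than in both CDK6-WT libraries. Over the 48 such regions of all members the count was 8 (16.7%), against 9.80% of the 16381 regions of this kind in the genome. The opposite order was found once (2.08%, against 5.08%), also at Ets1, in an intron at -27.8 kb with 67.4 and 84.5 against 42.0 and 62.3. Intronic regions at 10.0 kb, with 51.1 and 36.3 against 64.8 and 68.9, and at 24.3 kb, with 20.9 and 46.3 against 53.2 and 80.0, showed the higher CDK6-K43M rank. This order rests on the ranks. By the deposited fold enrichment itself, only 2 of the 7 Ets1 regions, at 24.3 and 51.8 kb, had both CDK6-K43M libraries above both CDK6-WT libraries. Over the 48 regions the count was 4 (8.33%, against 7.06% of all such regions). The opposite order by fold enrichment was equally frequent, with 4 of the 48 (8.33%), 1 of them at Ets1. Its share among all such regions was not computed. At the Ets1 start the fold enrichments of 10.9 and 8.19 with CDK6-WT and 13.9 and 10.5 with CDK6-K43M overlapped. They overlapped also at 10.0 kb, with 7.04 and 5.35 against 7.91 and 7.01, and at 50 kb, with 7.53 and 6.06 against 11.6 and 6.23. Ets1 was singled out after its values were seen.

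Ets2, the paralog of Ets1, had 3 regions, all in every list. The promoter region at -0.167 kb had percentiles of 83.9, 36.3, 79.7 and 7.80 and was low in both replicate 2 libraries. The exonic region at 18.7 kb had 86.5, 80.6, 86.2 and 26.4, with only CDK6-K43M replicate 2 low. Downstream of the gene, at 26.9 kb, the values were 75.8, 70.2, 85.7 and 90.0, and this region was the second strongest of the locus in CDK6-WT replicate 2 and the strongest in CDK6-K43M replicate 2.

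Fli1, a regulator of stem cells, megakaryocytes and B cell homeostasis, carried the densest set of intronic regions. Of its 16 regions bound by both variants, 11 lay between 26.0 and 42.6 kb from the start, within 17.5 kb on chromosome 9 (32499537 to 32517076), and 7 of those 11 were present in every list. The strongest, at 32.9 kb, reached percentiles of 94.1, 98.0, 94.9 and 87.0 with 41, 48, 51 and 26 summit reads, high in all libraries. A region upstream of the gene at -19.8 kb had 38.7 and 25.0 in the replicate 1 libraries and 96.9 and 97.2 in the replicate 2 libraries. Summit reads were 17 and 20 in the replicate 1 libraries and 41 and 39 in the replicate 2 libraries, and within each number the 2 variants were close.
The windows of these 2 summits are given since they set a site that was strong in every library beside one that was strong in replicate 2 alone.
Fli1 at 32.9 kb, chr9:32509900-32510000, minus strand: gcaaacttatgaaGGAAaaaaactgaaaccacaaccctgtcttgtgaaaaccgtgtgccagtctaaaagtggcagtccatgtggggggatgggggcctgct
Fli1 at -19.8 kb, chr9:32562651-32562751, minus strand: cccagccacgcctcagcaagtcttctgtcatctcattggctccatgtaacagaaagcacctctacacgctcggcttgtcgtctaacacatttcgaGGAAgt
Each held 1 GGAA core, which in the upstream window is part of the PU.1-type element GAGGAAGT.
The strongest promoter peaks of Fli1, in the exon at the edge of the promoter window, ranked at 88.7, 50.1, 85.7 and 83.5, so that only CDK6-WT replicate 2 was low.

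Erg, the paralog of Fli1 and a stem cell factor, is a long gene with 4 promoter windows, of which only the fourth, with starts from 127 kb, held peaks. The strongest peaks of that window had percentiles of 63.3, 36.3, 57.9 and 75.1. They came from 3 different regions, and no single promoter region of Erg was held by more than 3 lists. All 8 regions of Erg present in every list were intronic and lay between 131 and 185 kb. The strongest of them, at 158 kb, had 97.0, 77.8, 95.1 and 87.7 and was high in every library.
Its window is shown because it held 4 GGAA cores but neither the ETS consensus nor the PU.1-type element.
Erg at 158 kb, chr16:95428441-95428541, minus strand: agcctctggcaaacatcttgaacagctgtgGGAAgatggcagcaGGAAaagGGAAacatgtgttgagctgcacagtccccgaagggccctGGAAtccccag
In 5 of these 8 Erg regions both replicate 2 libraries ranked above both replicate 1 libraries, as in 29.7% of all regions present in every list and 43.2% of those away from promoters. The widest gap was at 133 kb, where the values were 30.0, 87.4, 65.3 and 93.6.

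Elf1, an activator of lymphoid genes, had the highest promoter percentile of the 10 members in both replicate 1 libraries, while Etv6 led in CDK6-WT replicate 2 and Ets1 in CDK6-K43M replicate 2. The region at 0.371 kb (chr14:79480502-79482079) had percentiles of 99.2, 83.0, 97.8 and 68.9 and 57, 24, 60 and 17 summit reads. It was stronger in the replicate 1 libraries and also overlapped the promoter of the neighbouring gene Wbp4, which encodes a splicing factor. A second promoter, at 34.5 kb, had 68.7, 84.8, 83.4 and 76.5, and a stretch of intron beyond it held regions found only in both replicate 2 lists, of which Elf1 had 5.
A tRNA gene for glutamic acid, named n-TEttc4 in RefSeq (GRCm38.p6; chr14:79481668-79481739), also lay under the first promoter region. It was the only region among the 64 over a tRNA gene, as were 0.448% of all regions bound by both. The window centred 123 bp from the summit is shown because it holds most of this 72 bp gene.
Elf1 at 0.371 kb, chr14:79481638-79481738, plus strand: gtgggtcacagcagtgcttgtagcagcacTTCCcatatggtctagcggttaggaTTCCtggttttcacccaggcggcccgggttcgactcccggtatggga
The peak at the Elf1 start therefore cannot be assigned to Elf1, Wbp4 or the tRNA gene alone. Within the intron, the region at 40.7 kb had 46.3 and 44.2 in the replicate 1 libraries and 89.0 and 92.9 in the replicate 2 libraries. The region at 106 kb, with 79.7, 66.4, 92.9 and 75.9, overlapped the promoter of Sugt1, a cochaperone gene.

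Etv6, a repressor needed for adult hematopoietic stem cells, was the member whose peak number differed most between replicate numbers, with 2 and 4 peaks in the replicate 1 libraries and 10 and 14 in the replicate 2 libraries. Its promoter did not show this. The region at 0.0370 kb had percentiles of 79.4, 88.0, 78.8 and 80.8, the narrowest spread among promoter regions of the family present in every list. In contrast, the intronic region at 121 kb (chr6:134155722-134156849) had 12.8 and 49.4 in the replicate 1 libraries and 99.5 in each replicate 2 library. Its summit reads were 13 and 27 against 63 and 58, and its fold enrichments were 4.55 and 5.73 against 21.7 and 21.9. A second intronic region, at 185 kb, was absent from both replicate 1 lists and had 91.0 and 94.9 in the replicate 2 lists.
The sequence just upstream of the start, centred 88 bp from the summit, is given beside the window of the intronic region at 121 kb, since they differ in this way within 1 gene.
Etv6 at 0.0370 kb, chr6:134035599-134035699, plus strand: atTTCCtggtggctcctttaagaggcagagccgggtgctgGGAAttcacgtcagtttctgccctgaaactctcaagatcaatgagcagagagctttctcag
Etv6 at 121 kb, chr6:134156393-134156493, plus strand: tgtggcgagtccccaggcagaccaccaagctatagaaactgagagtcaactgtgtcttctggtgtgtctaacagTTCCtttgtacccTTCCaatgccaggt
Each window held 2 GGAA cores, and neither held the ETS consensus or the PU.1-type element.

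**Figure D3:**
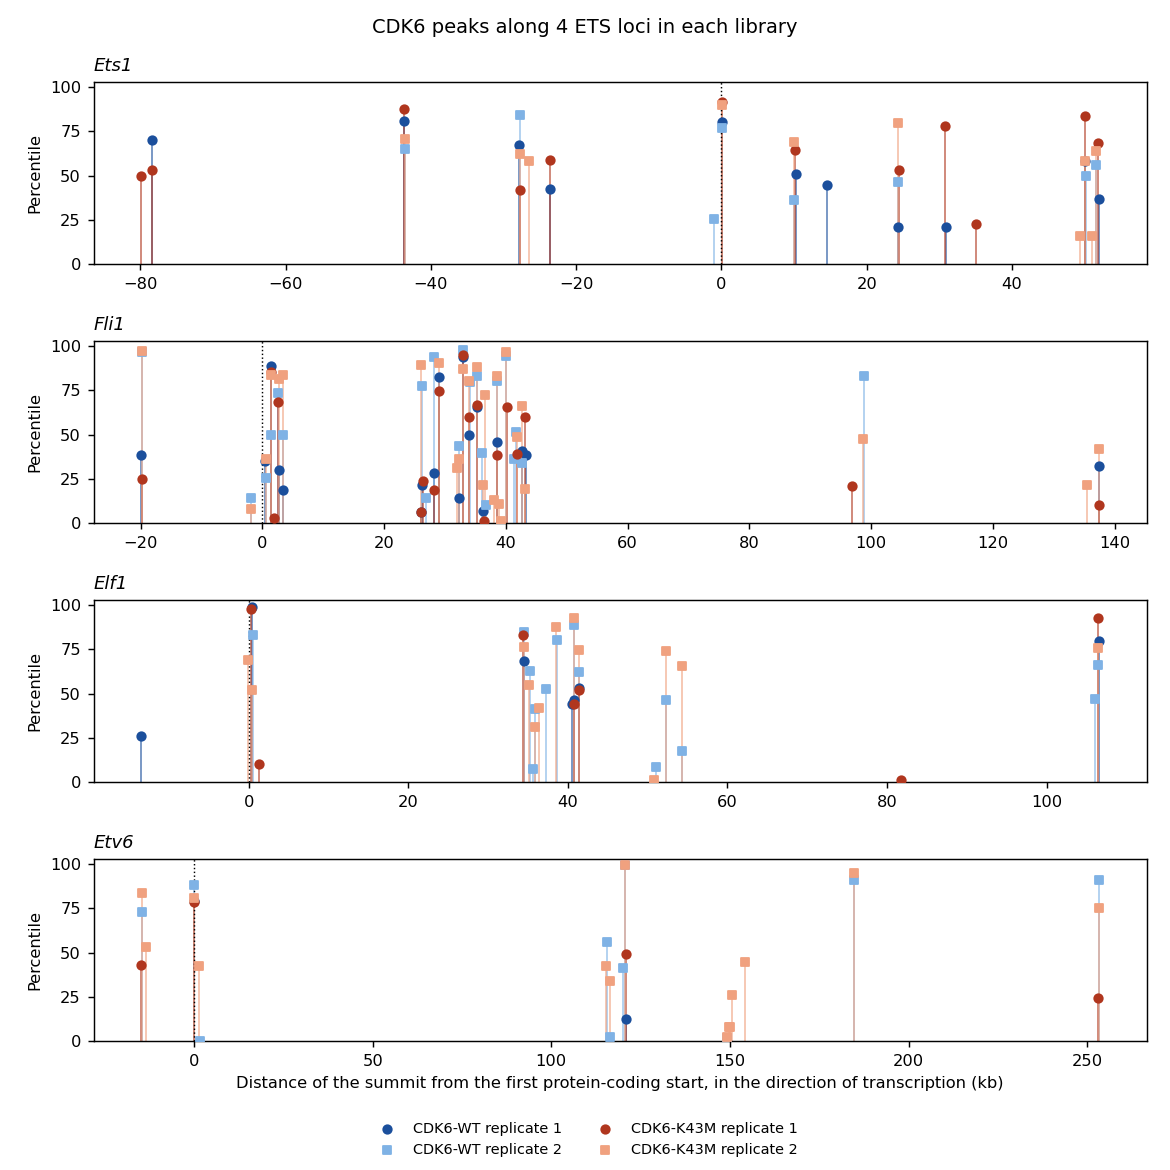
Percentile of each peak within its list (y axis) against the distance of its summit from the first protein-coding start in kb (x axis, in the direction of transcription) at Ets1, Fli1, Elf1 and Etv6, with 1 colour per library. Peaks of Fli1 crowd between 26.0 and 42.6 kb, and at Etv6 the squares of the replicate 2 libraries stand at 99.5 at 121 kb, where the replicate 1 libraries have 12.8 and 49.4.

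Elk1 and Elk4 form ternary complexes with serum response factor at immediate early genes. Elk1 had 2, 2, 4 and 1 peaks over its locus and 1 region bound by both, at -11.5 kb with 56.6, 56.1 and 84.3 and no peak in CDK6-K43M replicate 2. That region overlapped the promoter of Uxt, a prefoldin-like gene, and 4 of the 5 regions of the Elk1 locus lay over promoters of other genes. Elk4 had 11, 8, 9 and 12 peaks and 8 shared regions, 6 of them within 8.66 kb around the start (from -4.61 to 3.48 kb). Its promoter region at 0.633 kb had 95.8, 79.1, 94.5 and 62.5 and was higher in the replicate 1 libraries.
Elk4 at 0.633 kb, chr1:132008190-132008290, plus strand: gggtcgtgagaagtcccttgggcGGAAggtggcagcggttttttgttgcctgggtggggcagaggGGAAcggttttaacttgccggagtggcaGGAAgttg
This window is given as the promoter that ranked highest in the replicate 1 libraries among those over no other gene's promoter, and it held 3 GGAA cores. The region of the gene body at 3.48 kb had 74.8, 90.3, 57.4 and 76.7.

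Among the 48 regions present in every list, percentiles separated the replicate numbers more often than the variants. Both replicate 1 libraries ranked above both replicate 2 libraries in 16 regions (33.3%, against 41.1% of all such regions), and the reverse was seen in 18 (37.5%, against 29.7%). The direction differed by the place of the region, at these loci and in the lists as a whole. Of 14 regions over a protein-coding promoter, 10 ranked higher in replicate 1 and 1 in replicate 2, where 62.7% and 13.7% of all promoter regions did. Of the 34 regions away from promoters, 6 ranked higher in replicate 1 and 17 in replicate 2, where 22.9% and 43.2% of all such regions did. These counts are descriptions with no test. Fli1 with 6 and Erg with 5 contributed most of the regions that ranked higher in replicate 2.

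**Figure D4:**
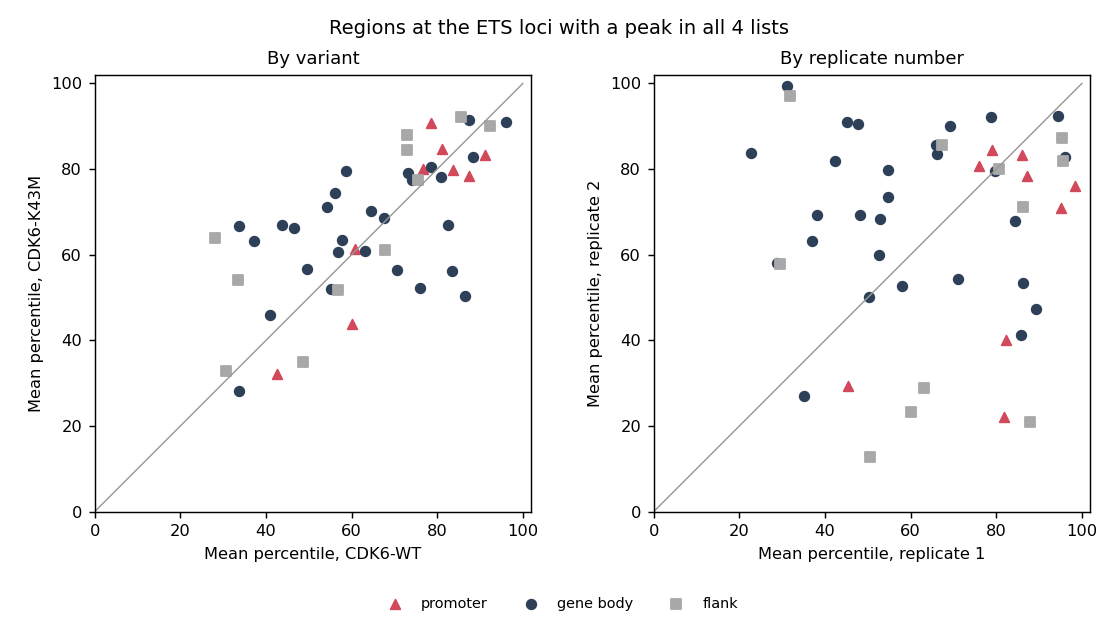
Mean percentile of the 48 regions with a peak in all 4 lists, CDK6-K43M against CDK6-WT (left) and replicate 2 against replicate 1 (right), with the line of equal values and the place of the region as symbol. Percentiles of the libraries did not overlap by variant in 8 regions on the CDK6-K43M side and 1 on the CDK6-WT side, and by replicate number in 16 on the replicate 1 side and 18 on the replicate 2 side.

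The summits of the 64 shared regions were searched on both strands within 100 bp to each side for ETS-type and other motifs, where the GGAA core is part of every ETS motif named here. The core stood in 60 windows (93.8%), against 92.0% of the windows of 22975 regions bound by both in the genome. The ETS consensus CCGGAAGT stood in 1 window (1.56%, against 3.80%) and the PU.1-type element GAGGAAGT in 5 (7.81%, against 6.33%). All 5 lay at Fli1, 3 in introns, 1 in the promoter and 1 upstream of the gene. The ETS-IRF composite GGAANNGAA was found in 6 windows (9.38%, against 8.45%), 2 at Ets1, 2 at Erg, 1 at Elf1 and 1 at Etv6. The RUNX motif TGTGGTT was found in 4 (6.25%, against 9.39%). An SP1 motif, GGGGCGGGG, stood in 1 window (1.56%, against 5.76%) and an NRF-1 motif, GCGCATGCG, in none (against 1.60%). These genome shares mix places, and 45 of the 64 windows lay away from promoters. Over all regions bound by both, the ETS consensus stood in 7.75% of promoter windows and 0.811% of the others. The SP1 motif stood in 12.1% and 1.00%, and the NRF-1 motif in 3.34% and 0.283%. These matches describe the letters of the windows and show no binding by the factors.

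Of 16 further ETS family genes, 7 (43.8%) had a promoter bound by both variants, close to the 41.3% of other protein-coding genes, and none had a variant-unique promoter region, which 0.936% of other genes had. The 3 with the highest mean percentile were Gabpa, the DNA-binding subunit of an activator of many mitochondrial genes, with 98.6, 92.6, 98.1 and 78.9, Elf2 with 86.6, 93.2, 94.7 and 84.7, and Etv5 with 55.9, 92.8, 73.7 and 91.6. Spic, Elf5, Etv2 and Fev had no promoter peak in any list. Elf4, Erf and Spdef had peaks in both replicate 1 lists only, Ehf in both replicate 2 lists only, with 74.2 and 80.9, and Elf3 in CDK6-K43M replicate 1 only, at 16.9.

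All 8 genes for partners of ETS factors had promoter peaks in every list, against 33.2% of protein-coding genes outside the list of ETS members. The number of promoter regions per gene, from 1 at Gabpb1 and Srf to 6 at Pax5, was not adjusted for. Gabpb2 and Gabpb1, the partner subunits of Gabpa, had 98.6, 87.1, 94.5 and 94.1, and 89.6, 62.7, 86.4 and 61.2. Pax5, the B cell commitment factor that recruits Ets1, had 94.9, 79.5, 98.7 and 90.8. Runx1 had 92.6, 70.2, 78.3 and 90.0, and its partner Cbfb had 79.4, 90.7, 83.6 and 82.0. The medians of other occupied promoters were 84.3 in CDK6-WT replicate 1 and 86.1 in CDK6-K43M replicate 1. Cbfb lay below both of these, and Runx1 lay below the second. Irf8, a partner of PU.1 and Spib, had 83.7, 68.9, 66.4 and 69.9, and Irf4 had 30.0, 72.2, 55.2 and 53.6. Srf, the partner of Elk1 and Elk4, had 69.6, 19.5, 64.5 and 52.0 and was lowest in CDK6-WT replicate 2.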

How the data were processed

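ChIP-seq peak lists of 4 anti-HA libraries, 2 per variant, were analysed; the 2 input libraries were not analysed here. Per the labels and methods, the authors trimmed reads (Trimmomatic 0.36), aligned them to mm10 with BWA 0.7.15, removed blacklisted, multimapping and low-quality reads (bedtools, SAMtools 1.3.1) and called peaks for each library with MACS2 2.1.0 at default settings. The deposited columns give a score, the fold enrichment (a ratio to the local background), -log10 p-value and -log10 q-value of each peak, and its position. Which input served which library is not given in the sources used here.

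Genes came from GENCODE M21. Peaks were merged where they overlapped by 1 bp or more. Percentiles were taken over each whole list, and a region took its strongest peak. Sequencing depth is unknown; summit reads were recovered from the fold enrichment and -log10 p-value of each list, and whole reads met 100.00% of peaks within 0.001. The ratio of treatment to control depth so found was 1.03 and 1.09 with CDK6-WT and 1.23 in CDK6-K43M replicate 1. In CDK6-K43M replicate 2 the treatment reads were not scaled, so 1.00 is only an upper limit there. Reads were not counted again, and summit reads carry counting error only. Variants were compared by two-sided exact permutation of the libraries (Python 3.11.15, SciPy 1.17.1) and by counts of lists. The rules for regions bound by both and unique regions are those of the authors, who defined regions with DiffBind, while here overlapping peaks were merged. Sequences were read from the mm10 reference with pysam 0.24.0. The code was tested on 4 simulated lists and gave no wrong region class. The members, lists and tests were chosen with earlier results of these data known. All 10 members and all partners are named, of the other ETS genes those without a shared promoter region and the 3 highest in mean percentile, and other genes where their promoter overlaps a counted region. Of the cell type markers, Rag1 and Lyz2 are named as the exceptions in their lists, after their values were seen. Alternatives changed the q-value minimum, list length, peak shape, merging, windows, ranking, libraries and motif window.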

Additional observations from a re-analysis of the deposited data

How the results depend on the processing

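Values were recomputed for 8 results under 17 alternative settings, which gave 75 values, of which 64 kept their direction or stayed within 1.5 times. The lowest exact permutation p over these was 0.333, and with 2 libraries per variant none could fall below 0.33, so the tests say nothing about stability. With lists of equal length (34729 peaks) the difference in peak number turned to -1, and at a minimum -log10 q of 10 the difference in share turned to 0.188 per 1000 peaks. At that minimum, members with a promoter bound by both fell to 5, shared regions to 24 and windows with the ETS consensus to 0. The shares among all other genes and regions at this minimum were not computed, so the drop cannot be called particular to the ETS genes. Without 1 library, the difference in peak number ranged from -2.00 (without CDK6-K43M replicate 2) to 19.0 (without CDK6-K43M replicate 1), the difference in share from -0.360 to 0.349, and that in median percentile from -3.76 (without CDK6-WT replicate 2) to 16.2 (without CDK6-WT replicate 1). Windows with the ETS consensus ranged from 0 to 1, and were 0 without CDK6-K43M replicate 1. The share also turned, to 0.0682, without CDK6-WT replicate 2. The cause was not tested. The count of Ets1 regions ranked higher with CDK6-K43M, chosen after seeing the data, was 4 of 7 with equal lists and with a -log10 q of 5 or more, 5 of 7 with percentiles ranked by fold enrichment and 2 of 7 by the deposited fold enrichment itself. Same-numbered libraries deviated together (r = 0.676 over 16381 regions), but the labels do not say what the number marks. With the replicate number as a block the differences were 8.50 peaks, -0.00571 per 1000 peaks and 6.20 percentile points, with p = 1.00, 1.00 and 0.5 by exact sign flips, whose smallest p is 0.5. These differences equal the main ones by arithmetic. They are counted among the 64 values but say nothing about stability.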

Other observations

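Of the 46 regions at the ETS loci found in a single list, 19 (41.3%) came from CDK6-K43M replicate 2, 14 (30.4%) from CDK6-K43M replicate 1, 8 (17.4%) from CDK6-WT replicate 1 and 5 (10.9%) from CDK6-WT replicate 2, where the shares among all single-list regions were 31.5%, 35.1%, 14.5% and 18.9%. Their median percentiles at the ETS loci were 26.4, 21.8, 27.5 and 12. By zone, promoter peaks of the family numbered 15, 16, 12 and 15 in the order CDK6-WT replicates 1 and 2, CDK6-K43M replicates 1 and 2, and gene body peaks numbered 48, 58, 48 and 71. Upstream flanks held 17, 12, 17 and 14 peaks and downstream flanks 7, 5, 10 and 8. Only in the downstream flanks did the counts of the variants not overlap (exact permutation test, two-sided, p = 0.333, the smallest possible). The ratio of observed to expected CpG dinucleotides around the first protein-coding start was lowest at Spib (0.0870) and Spi1 (0.176) and highest at Elk4 (0.983) and Elf1 (0.978).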
